A study of Rattus norvegicus with 15 samples.

Results

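Transcripts of Müller glia and of the cytokine cascade of retinal stress were followed in the rat retina through 10 genes. They are the receptor subunits *Il6st* and *Lifr*, the transcription factor *Stat3* and its brake *Socs3*, the glial genes *Gfap*, *Vim*, *Glul* and *Slc1a3*, and the secreted factors *Edn2* and *Fgf2*. All 19 probe sets of the array whose annotation gives exactly 1 symbol among these genes were taken, of 31099 probe sets in all. A probe set is a group of short oligonucleotides that together measure a transcript, and *Il6st* has 4 of them, *Glul* and *Slc1a3* 3 each, *Stat3* and *Lifr* 2 each, and the other 5 genes 1 each. Retinas of adult Long-Evans rats were measured on 15 Affymetrix arrays, in 5 conditions with 3 replicas each. All rats were kept in the dark overnight. The control was collected at 7 am (0 ZT dark, ZT being the zeitgeber time, here in hours after 7 am). Other rats stayed in darkness until 10 am (3 ZT dark) or until 1 pm (6 ZT dark). The light groups were exposed to 1000 lux from 7 am and collected at those hours, after 3 hours (3 ZT light) or 6 hours (6 ZT light). For the 6 ZT light group, the sample titles and the study's methods give 6 hours in light, whereas the source and treatment labels give 3. Neither says what a replica consisted of or how many rats it held, so the p-values below measure only the spread between these samples.

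Müller cells are the radial glia that span the whole thickness of the retina. They take up glutamate through the transporter encoded by *Slc1a3*, convert it to glutamine with the enzyme encoded by *Glul*, and carry the intermediate filaments vimentin and, under stress, GFAP. Cytokines of the interleukin 6 family, among them leukemia inhibitory factor, bind receptors that share the subunit gp130, the product of *Il6st*. Gp130 pairs with the receptor encoded by *Lifr*, associated Janus kinases phosphorylate STAT3, and STAT3 in turn induces *Socs3*, whose product inhibits the receptor complex. In injured rodent retinas, endothelin 2 from photoreceptors (*Edn2*) and the growth factor FGF2 (*Fgf2*) are known parts of the same response.

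STAT3 binds palindromic DNA sites, and the windows from 250 bases before to 50 bases after each gene start (RefSeq, build GRCr8) were searched for TTCNNNGAA and TTCNNNNGAA, letters that read the same on both strands. All 10 genes had a window, 13 in all. The first motif lay in 1 of these 13 windows, against 8.87% of 33469 windows of the genome, and the second in 1 of 13, against 7.28%. The 2 windows are shown because they are the member promoters that hold such a match, in capitals. In *Fgf2* (chr2:122164204-122164503, plus strand) it lies from -128 to -120 relative to the gene start, and in *Gfap* (chr10:88361612-88361911, minus strand) from -196 to -187.
Fgf2: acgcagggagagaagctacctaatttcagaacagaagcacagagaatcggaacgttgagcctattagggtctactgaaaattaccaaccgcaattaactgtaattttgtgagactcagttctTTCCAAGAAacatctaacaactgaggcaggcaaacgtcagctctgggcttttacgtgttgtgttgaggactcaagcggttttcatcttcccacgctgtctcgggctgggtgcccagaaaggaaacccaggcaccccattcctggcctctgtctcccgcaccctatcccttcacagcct
Gfap: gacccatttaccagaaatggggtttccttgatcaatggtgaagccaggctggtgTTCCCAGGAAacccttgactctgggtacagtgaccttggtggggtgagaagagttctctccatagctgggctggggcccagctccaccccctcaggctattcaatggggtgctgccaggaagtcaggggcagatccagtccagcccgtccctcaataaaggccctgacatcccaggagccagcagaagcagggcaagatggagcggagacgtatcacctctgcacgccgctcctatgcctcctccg
A match is a description of these letters and was not tested as a binding site of STAT3 or of another STAT factor. The 2 motifs differ in the spacing of their ends, and which of them STAT3 prefers was not examined. The transcripts of both genes are described below.

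The retinal origin of the samples showed in rod photoreceptor genes, with a mean log2 value over 5 measured genes between 14.4 and 14.7 in each array. The 15 arrays differed in ways that touch the glial genes. The *Actb* probe set near the 3′ end of the transcript exceeded that near the 5′ end by 2.40 log2 units in 3 ZT light replica 2 and by 2.10 in 0 ZT dark replica 1, where the remaining 13 arrays had 0.71 to 1.37. The same measure for *Gapdh* was 0.36 and 0.26, and 0.01 to 0.13 in the rest. A large difference is commonly read as a sign of shorter RNA, so a member's difference is also given without these 2 arrays, or without the 1 it holds, where that moved it by over 1.5 times. Values of other genes are with all 15 arrays unless stated. Median log2 values of the arrays also fell into ranges by replica number, 8.28 to 8.32 in replica 1, 8.58 to 8.68 in replica 2 and 8.75 to 8.81 in replica 3. Genes of the lens, a neighbouring tissue, had a mean log2 value over 13 genes of 12.2 to 12.9 in the 6 ZT dark arrays and of 8.97 to 11.996 in those of 6 ZT light. For 9 genes of the pigment epithelium the corresponding ranges were 11.1 to 11.8 and 11.8 to 12.5.

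*Il6st*, the shared signalling subunit of the receptors, had the lowest p-values of the 10 genes in both comparisons of 6 ZT light, though none passed the threshold of an adjusted p of 0.05. Its probe set 1373140_at read 11.43, 11.67 and 11.996 log2 units in the 3 arrays of 6 ZT light (replicas 1, 2 and 3). In 6 ZT dark it read 11.15, 11.40 and 11.41, in 0 ZT dark 11.30, 11.37 and 11.08, in 3 ZT light 11.35, 11.38 and 11.34, and in 3 ZT dark 11.27, 11.39 and 11.20. Every 6 ZT light array thus lay above the 12 other arrays, the closest being 11.41 in 6 ZT dark. Among all 31042 probe sets that are not controls, 0.161% had all 3 arrays of 6 ZT light above the other 12, and this was the only 1 of the 19. Light against darkness at 6 ZT gave a log2 difference of 0.38 (SE 0.127, n = 3, higher in 3 of 3 replicas, limma adjusted p = 0.524), and 6 ZT light against 0 ZT dark 0.45 (SE 0.127, adjusted p = 0.53). Without replica 3 of 6 ZT light these differences were 0.21 and 0.28. In bulk tissue, more cells of a type and more RNA per cell cannot be told apart.

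The *Il6st* probe set 1383489_at had a related pattern. It read 9.29, 9.66 and 9.77 in 0 ZT dark and 9.88, 10.20 and 11.02 in 6 ZT light, so that these groups did not overlap. The means of the other groups lay between, with 9.63, 9.72 and 9.82 in 3 ZT dark, 9.79, 9.46 and 10.12 in 3 ZT light, and 9.67, 9.94 and 10.34 in 6 ZT dark. In each replica 6 ZT dark exceeded 0 ZT dark, and 6 ZT light exceeded 6 ZT dark. The ratios of 6 ZT light to 0 ZT dark were 1.51, 1.45 and 2.37, a log2 difference of 0.79 (SE 0.173) and an adjusted p of 0.355, the lowest of any of the 19 probe sets in the 7 comparisons. Part of this difference was present in darkness, as 6 ZT dark exceeded 0 ZT dark by 0.41 (SE 0.173, adjusted p = 0.556) and 6 ZT light exceeded 6 ZT dark by 0.38 (SE 0.173, adjusted p = 0.585). Without replica 3 of 6 ZT light the last value was 0.18. This replica also had the lowest lens signal of the 15 arrays, a mean log2 value of 8.97, and the part of the lens in these values was not tested.

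With all arrays, the 2 brighter *Il6st* probe sets differed more between light and darkness at 3 ZT than at 6 ZT. The first, 1371926_at, read 12.16, 12.56 and 12.06 in 3 ZT light, against 11.72, 12.03 and 11.92 in 3 ZT dark and 12.06, 11.82 and 11.70 in 0 ZT dark. The 3 ZT light arrays were above both dark groups, though only just above the highest 0 ZT dark array. The difference from 3 ZT dark was 0.38 (SE 0.164, adjusted p = 0.895), and without 3 ZT light replica 2, whose *Actb* difference was the highest, it was 0.21. Light against dark at 6 ZT gave 0.30 for this probe set (SE 0.164, limma adjusted p = 0.621). Without that array its 3 ZT difference was thus the smaller of the 2. The second, 1370957_at, read 12.06, 12.12 and 12.11 in 3 ZT light and 11.89, 11.75 and 11.84 in 3 ZT dark, which do not overlap. Its 0 ZT dark values were spread from 11.26 to 12.10 and overlapped every other group. At 6 ZT it was lower in light in replica 1 and higher in the other two, with a difference of 0.17 (SE 0.209, adjusted p = 0.81). The other 3 probe sets were higher in light in each replica at 6 ZT, as were 17.2% of all probe sets, and at 3 ZT 2 of the 4 were, against 7.71%. The 4 probe sets measure 1 gene on the same arrays and are not separate pieces of evidence.

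*Lifr*, the partner subunit, was measured by 2 probe sets, both higher in 3 ZT light than in 0 ZT dark in each replica, as were 11.8% of all probe sets. The dimmer, 1395957_at, read 6.87, 6.80 and 6.63 in 0 ZT dark and 7.03, 7.71 and 7.13 in 3 ZT light, without overlap. The highest of these was again 3 ZT light replica 2. The difference was 0.53 (SE 0.232, adjusted p = 0.649) and was 0.31 without that array. It was 0.72 without 0 ZT dark replica 1, and 0.50 without both of these arrays. At the same clock hour the ranges overlapped, since 3 ZT dark read 6.42, 6.98 and 7.61. In 6 ZT light it read 6.93, 6.98 and 7.16, above all 0 ZT dark arrays and within the range of 6 ZT dark, 6.63 to 7.16. The brighter, 1369228_at, read 8.24 in 3 of the 5 arrays of replica 2, and its largest difference in any comparison was 0.17 (SE 0.098, adjusted p = 0.693), for 3 ZT light against 0 ZT dark.

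*Stat3*, the transcription factor downstream of gp130, had 2 probe sets whose differences had opposite signs in both 3 ZT groups against 0 ZT dark and in light against dark at both hours. In 6 ZT light and 6 ZT dark against 0 ZT dark both were above 0. The study singled this gene out on these same arrays, so its values here are not independent support. The dimmer probe set, 1370224_at, read 7.56, 7.60 and 9.78 in 0 ZT dark, 7.51, 7.75 and 10.84 in 3 ZT dark, and 8.33, 8.27 and 11.10 in 3 ZT light. In 6 ZT dark it read 7.47, 8.38 and 10.78, and in 6 ZT light 7.44, 8.15 and 10.72. The 5 arrays of replica 3 (9.78 to 11.10) stood far above the 10 others (7.44 to 8.38), so every pair of conditions overlapped. The means of the replicas spanned 2.98 log2 units and the means of the conditions 0.92. Within replicas, 3 ZT light exceeded 0 ZT dark with ratios of 1.71, 1.59 and 2.48, a log2 difference of 0.92 (SE 0.220, adjusted p = 0.408). Against 3 ZT dark the difference was 0.53 (SE 0.220, higher in 3 of 3, adjusted p = 0.895), and at 6 ZT light was below dark in 3 of 3, by a mean of -0.11 (SE 0.220, adjusted p = 0.895). Without the 2 arrays with the high *Actb* difference, 3 ZT light against 0 ZT dark gave 1.33 (SE 0.224, adjusted p = 0.276), with replica 3 then the only replica to hold both conditions.

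The brighter *Stat3* probe set, 1371781_at, was lower, not higher, in 3 ZT light. It read 9.95, 9.98 and 10.17 in 0 ZT dark and 9.43, 9.56 and 10.13 in 3 ZT light, lower in all 3 replicas, with a difference of -0.33 (SE 0.151, adjusted p = 0.654), or -0.13 (SE 0.187) without the 2 arrays with the high *Actb* difference. In 3 ZT dark it read 9.60, 9.65 and 10.23, so light and dark at 3 ZT differed by only -0.12 (SE 0.151, adjusted p = 0.917), or by -0.02 without those arrays. In 6 ZT light it read 9.96, 10.19 and 10.15 and in 6 ZT dark 9.67, 10.31 and 10.13, a difference of 0.06 (SE 0.151, adjusted p = 0.92). The 3 ZT arrays of replicas 1 and 2 were the low ones, in light and in darkness alike. The means of its conditions spanned 0.39 and those of its replicas 0.44.

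**Figure D1:**
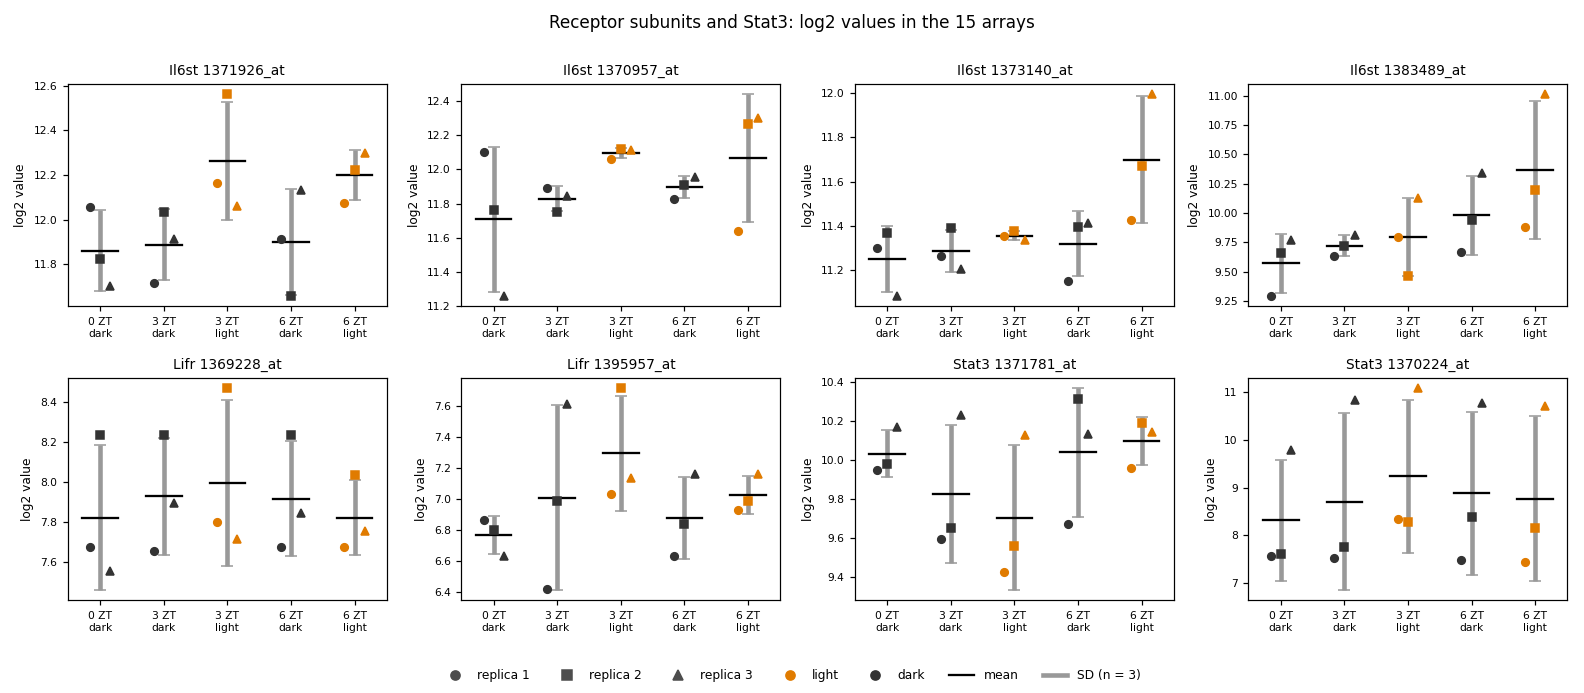
Log2 values (vertical axis) of the *Il6st*, *Lifr* and *Stat3* probe sets in the 5 conditions (horizontal axis), with a symbol for each replica, orange for light, black for darkness, a line for the mean and a grey bar for the SD (n = 3). The 3 arrays of 6 ZT light lie above all others for *Il6st* 1373140_at (11.43 to 11.996), and replica 3 stands apart for *Stat3* 1370224_at (9.78 to 11.10).

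*Socs3*, the inhibitor that STAT3 induces, hardly differed between conditions. It read exactly 7.12 in all 5 arrays of replica 2, 7.31 to 7.44 in replica 3 and 6.74 to 7.12 in replica 1. The lowest value, 6.74, was 0 ZT dark replica 1. The 95% confidence interval of light against dark ran from -0.18 to 0.20 log2 units at 3 ZT and from -0.24 to 0.14 at 6 ZT (adjusted p = 0.987 and 0.862). Means per condition spanned only 0.10, the least of the 19 probe sets.

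Of the secreted factors, means per condition spanned 0.16 for *Edn2* and 0.21 for *Fgf2*. *Edn2*, which encodes endothelin 2, read 7.76 in all 5 arrays of replica 1, 7.64 to 8.13 in replica 2 and 8.12 to 8.44 in replica 3. Light and dark differed by -0.02 at 3 ZT (SE 0.102, adjusted p = 0.982), -0.11 without the 2 arrays with the high *Actb* difference, and by -0.01 at 6 ZT (SE 0.102, adjusted p = 0.985). *Fgf2*, the growth factor, was the only 1 of the 19 below the 25th percentile of mean level. It read 6.43, 6.18 and 6.73 in 6 ZT light and 6.43, 6.47 and 7.07 in 6 ZT dark, equal in replica 1 and lower in light in replicas 2 and 3 (difference -0.21, SE 0.098, adjusted p = 0.59). At 3 ZT the difference was -0.02 (SE 0.098, adjusted p = 0.985), and -0.04 without those arrays. *Socs3*, *Edn2*, *Fgf2* and *Lifr* 1369228_at had 1 identical value in at least 3 arrays of a replica, as did 35.1% of all probe sets. Over such arrays the deposited values hold no difference to measure, and the cause was not tested.

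**Figure D2:**
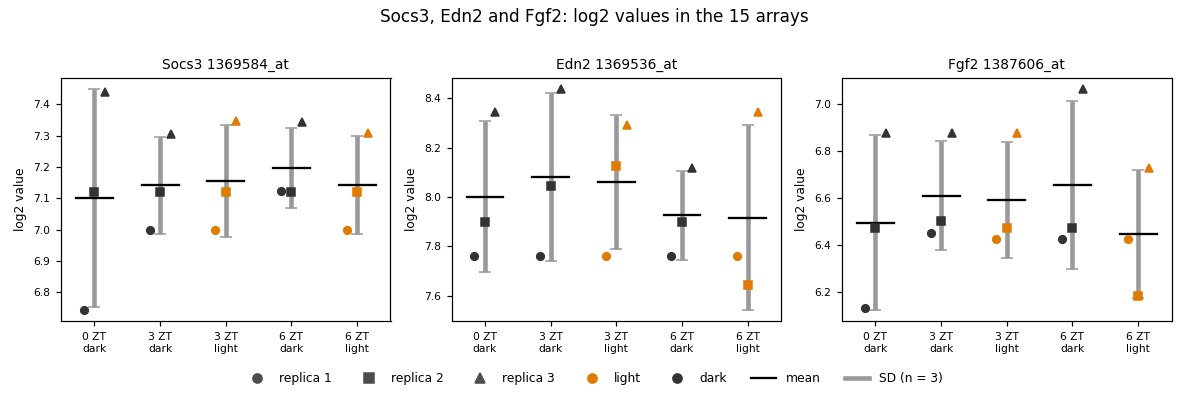
Log2 values (vertical axis) of *Socs3*, *Edn2* and *Fgf2* in the 5 conditions (horizontal axis), with a symbol for each replica, orange for light, black for darkness, a line for the mean and a grey bar for the SD (n = 3). Levels follow the replica more than the condition, and *Edn2* reads 7.76 in all 5 arrays of replica 1.

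*Gfap*, the filament protein of reactive glia and of astrocytes, varied among arrays without following light. It read 10.41, 10.37 and 11.12 in 0 ZT dark, 10.43, 10.80 and 11.46 in 3 ZT dark, and 10.18, 10.21 and 11.61 in 3 ZT light. The 6 ZT dark arrays read 10.47, 11.31 and 11.08, those of 6 ZT light 10.76, 10.13 and 11.40. All 5 groups overlapped. Light against dark gave -0.23 at 3 ZT (SE 0.269, adjusted p = 0.91), or -0.07 (SE 0.316) without the 2 arrays with the high *Actb* difference, and -0.19 at 6 ZT (SE 0.269, adjusted p = 0.839). At 6 ZT the sign came from replica 2, in which light was 0.44 times dark, against 1.22 and 1.24 in the other replicas. The 95% confidence interval at 6 ZT ran from -0.79 to 0.40.

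*Glul*, encoding glutamine synthetase, was measured by 3 probe sets that varied together but by different amounts. All 3 were higher in each replica of 6 ZT light and of 6 ZT dark than in 0 ZT dark, as were 12.3% and 15.5% of all probe sets. Replica 1 of that control has a high *Actb* difference, and each probe set was lowest there within replica 1. For 1367633_at, 1386870_at and 1367632_at the 6 ZT light differences were 0.90, 0.51 and 0.11. Without the 2 arrays with the high *Actb* difference they were 0.36, 0.20 and 0.06. Those of 6 ZT dark were 1.04, 0.56 and 0.065, and without these arrays 0.50, 0.26 and 0.009. The brightest, 1367632_at, read 14.03, 14.18 and 14.27 in 3 ZT light, below the 14.31, 14.38 and 14.41 of 3 ZT dark in every replica and without overlap. The difference was small, -0.21 (SE 0.089, adjusted p = 0.895), and was -0.18 without the 2 arrays with the high *Actb* difference and -0.11 without 3 ZT dark replica 1. At 6 ZT, light (14.12, 14.54 and 14.64) and dark (14.12, 14.48 and 14.55) differed by 0.05 (SE 0.089, adjusted p = 0.887), and the control read 14.01, 14.47 and 14.48.

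The other 2 *Glul* probe sets were lowest where the *Actb* difference was high. Probe set 1367633_at read 9.70 in 3 ZT light replica 2 and 10.64 in 0 ZT dark replica 1, while the other 13 arrays read 11.67 to 13.93. Relative to the other arrays of its replica, 3 ZT light replica 2 was lower by a log2 gap of -3.36 and 0 ZT dark replica 1 by -1.59, against gaps of -1.37 to 1.31 elsewhere. For 1386870_at the values were 12.28 and 12.55, against 12.90 to 14.34, and the gaps -1.55 and -0.84, against -0.70 to 0.69. These 2 probe sets were the only members of the 19 for which both of these gaps lay below those of all other arrays, as they did for 7.33% of all probe sets. The fitted light effect of 1367633_at at 3 ZT was -0.85 (SE 0.669, adjusted p = 0.895) with all arrays and 0.09 (SE 0.275, adjusted p = 1) without these 2. Its residual SD of 0.94 was above that of 99.8% of all probe sets, so that only very large changes could have been called.

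*Slc1a3*, the glutamate transporter of Müller cells, and *Vim*, encoding vimentin, each had a probe set that was lowest in 3 ZT light replica 2. *Slc1a3* 1388064_a_at read 7.84 and 7.69 in the 2 arrays with the high *Actb* difference, the lowest of their replicas, against 8.33 to 10.498 elsewhere. Relative to its replica, the gap of the 3 ZT light array was -1.59, below all others, whereas that of the control array, -0.74, lay within the remaining range of -0.92 to 1.18. Its light effect at 3 ZT was -0.19 (SE 0.352, adjusted p = 0.951), and 0.28 without these arrays (SE 0.241, adjusted p = 1). *Vim* read 11.51 in 3 ZT light replica 2, the lowest of 15, against 12.16 to 13.40 elsewhere, while its gap in 0 ZT dark replica 1, -0.33, lay within the -0.43 to 0.96 of the other arrays. Its light effect at 3 ZT was -0.25 (SE 0.348, adjusted p = 0.929), and 0.17 without these arrays (SE 0.261, adjusted p = 1). At 6 ZT *Vim* was 1.54 times as high in light in replica 1 and 0.64 and 0.85 times as high in replicas 2 and 3 (difference -0.08, SE 0.348, adjusted p = 0.957). *Vim* is also expressed in the lens, and the part of the lens signal given above was not tested.

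The brightest *Slc1a3* probe set, 1368565_at, was steadier. It read 12.84, 13.25 and 13.59 in 0 ZT dark and 12.58, 13.25 and 12.996 in 3 ZT light, lower in all 3 replicas though by only 0.01 in replica 2 (difference -0.29, SE 0.135, adjusted p = 0.662). Without the 2 arrays with the high *Actb* difference it was -0.45 (SE 0.170, adjusted p = 0.747). At 6 ZT it read 12.68, 13.43 and 13.28 in light and 12.79, 13.25 and 13.31 in darkness, a difference of 0.01 (SE 0.135, adjusted p = 0.99). The remaining probe set, 1371130_at, ranged from 9.58 to 11.64 with no order by light, and light differed from dark by -0.02 at 3 ZT and by 0.04 at 6 ZT (SE 0.463, adjusted p = 0.999 and 0.985). At 3 ZT it was -0.33 (SE 0.458) without those arrays.

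**Figure D3:**
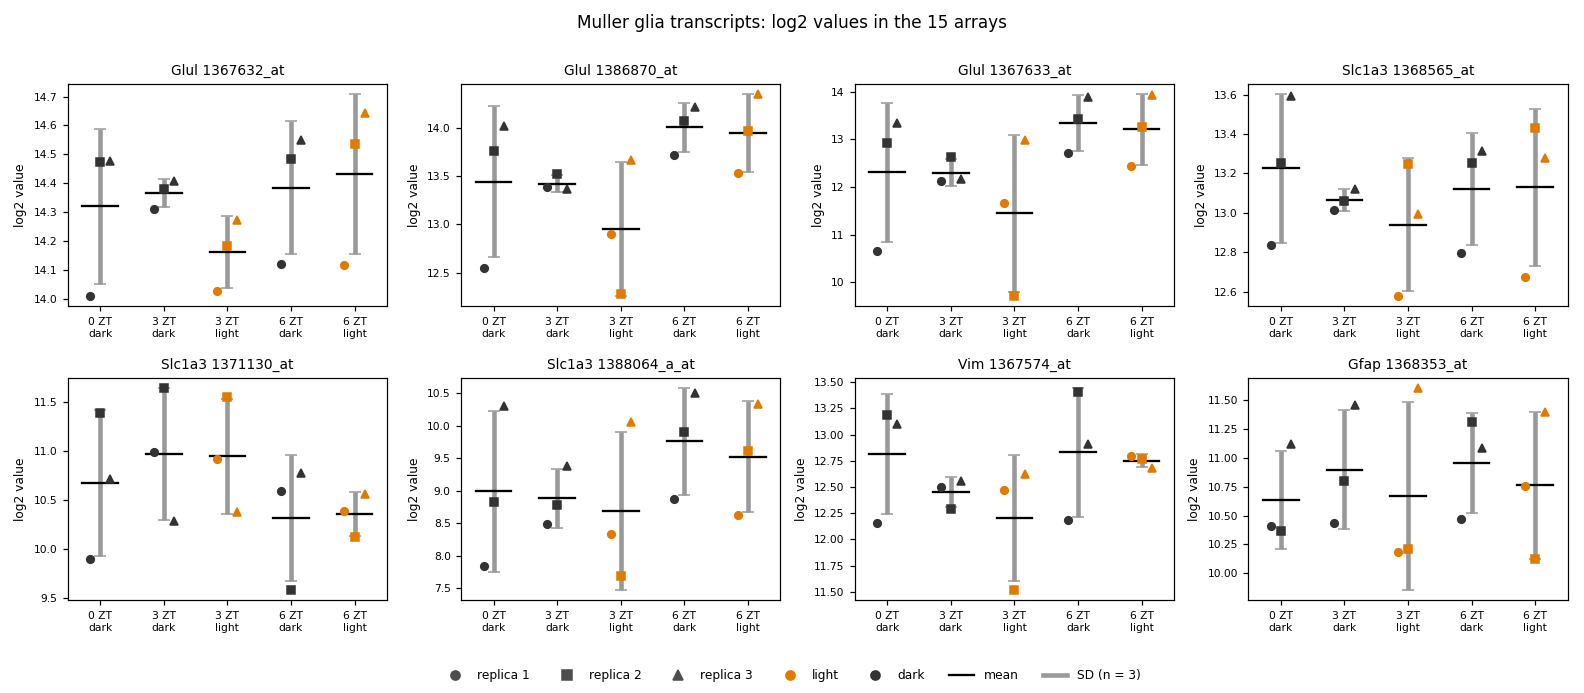
Log2 values (vertical axis) of the *Glul*, *Slc1a3*, *Vim* and *Gfap* probe sets in the 5 conditions (horizontal axis), with a symbol for each replica, orange for light, black for darkness, a line for the mean and a grey bar for the SD (n = 3). *Glul* 1367633_at is lowest in 3 ZT light replica 2 (9.70) and 0 ZT dark replica 1 (10.64), while *Glul* 1367632_at stays between 14.01 and 14.64.

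**Figure D4:**
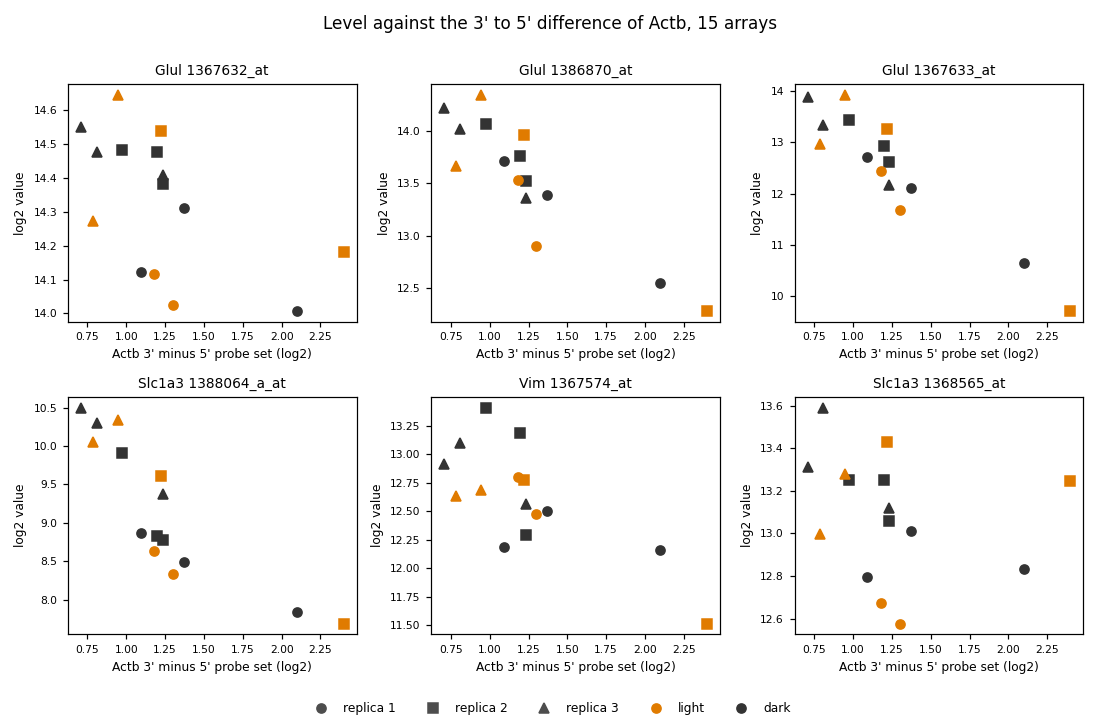
Log2 value of 6 glial probe sets (vertical axes) against the value of the 3′ *Actb* probe set minus the 5′ one (horizontal axes, log2 units), 1 symbol per array (n = 15), orange for light and black for darkness. The 2 arrays at 2.10 and 2.40 are the lowest for both dimmer *Glul* probe sets and for *Slc1a3* 1388064_a_at, and not for *Slc1a3* 1368565_at.

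Set side by side, the comparisons gave few differences beyond the spread between replicas. At an adjusted p under 0.05, no member passed in 3 ZT light against 0 ZT dark or in 3 ZT light against 3 ZT dark, where 0.00322% of all probe sets were lower and 0% higher in each. None passed in the other 5 comparisons either, where 0% of all probe sets passed in each direction. At an unadjusted p under 0.05, 3 of 19 members were higher in 3 ZT light than in 0 ZT dark (3.25% of all probe sets) and 2 in 6 ZT light (3.92%), with none lower (4.43% and 2.26%). At the same clock hour, 2 were higher in light at 3 ZT (1.96%) and 1 lower (2.64%), and at 6 ZT 2 were higher (5.56%) and none lower (2.97%). In darkness alone, 2 were higher at 6 ZT than at 0 ZT (3.47%) and none lower (5.26%), and at 3 ZT none was higher (0.477%) or lower (0.776%). For the difference between the light effects at 6 and 3 ZT none was higher (4.14%) or lower (1.81%). All but 2 of these members were probe sets of *Il6st* and *Stat3*, the exceptions being *Lifr* 1395957_at in 3 ZT light against 0 ZT dark and *Glul* 1367632_at at 3 ZT.

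Groups that did not overlap were counted in the same way. In 6 ZT light, 4 of 19 members lay wholly above 0 ZT dark (1.74% of all probe sets), 3 of *Il6st* and 1 of *Lifr*, and none lay below (1.81%). In 3 ZT light, 2 lay above 0 ZT dark (1.29%) and none below (1.21%). Light lay above dark for 2 members at 3 ZT (0.39%) and below for 1 (0.954%), and at 6 ZT above for 1 (2.33%) and below for none (1.19%). Neither dark group lay above 0 ZT dark (0.309% at 3 ZT and 0.673% at 6 ZT) or below it (1.07% and 3.69%). The 4 light and dark comparisons with 0 ZT dark share the same 3 control arrays, and probe sets of a gene share its transcript, so these counts are not separate pieces of evidence. The study's own rule, a ratio above 1.6 or below 0.7 in all 3 replicas, was met by no member in any comparison, with 0.058% of all probe sets above and 0.0741% below in 3 ZT light against 0 ZT dark and 0.0709% in each direction in 6 ZT light. The shares above and below were 0% and 0.0161% for 3 ZT dark and 0.0644% and 0.287% for 6 ZT dark against 0 ZT dark, and, for light against dark, 0.0161% and 0.0322% at 3 ZT and 0.0548% and 0.0387% at 6 ZT. The nearest member was *Stat3* 1370224_at, with a lowest ratio of 1.59 in 3 ZT light against 0 ZT dark. The study reports *Stat3* as up-regulated at both light hours. As applied here, its rule was met by neither *Stat3* probe set at either hour. It was met upward by 18 probe sets in 3 ZT light and 22 in 6 ZT light, fewer than the study counts as up-regulated. The downward counts, 23 and 22, equal those of the study. The up-regulated lists of the study were thus not reproduced, and the reason was not tested. In 6 ZT light against 0 ZT dark, 1370224_at had a ratio of 0.92 in replica 1. Median log2 differences of the 19 members were 0.06 in 3 ZT light and 0.13 in 6 ZT light against 0 ZT dark, where all probe sets had 0.00 and -0.01. For light against dark they were -0.02 at 3 ZT and -0.01 at 6 ZT, where all probe sets had 0.00 and -0.01.

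**Figure D5:**
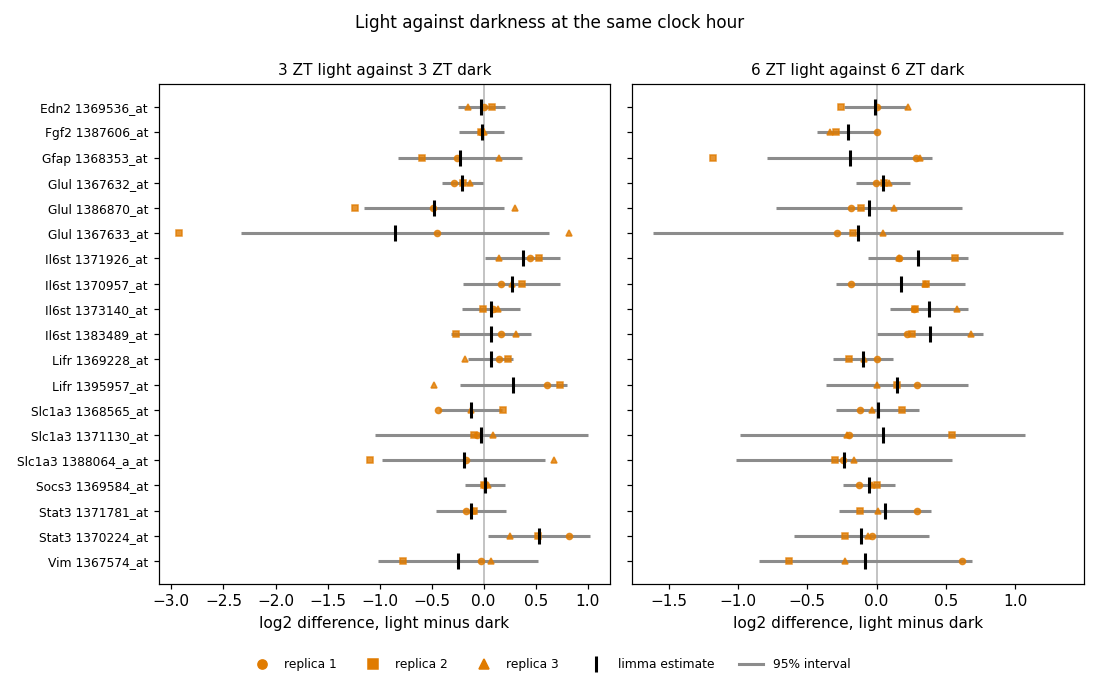
Log2 difference between light and darkness (horizontal axes) of the 19 probe sets (vertical axis) at 3 ZT (left) and 6 ZT (right), with the limma estimate as a bar, its 95% confidence interval as a grey line and the 3 replica differences as symbols. All 4 *Il6st* probe sets have estimates above 0 at both hours, from 0.07 to 0.38, while the dimmer *Glul* probe set 1367633_at has the widest interval.

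The other genes of the cascade were described from lists. Of 7 measured ligands of the interleukin 6 family, none passed in any comparison, and medians ran from -0.06 to 0.03. Several were dim, with mean log2 values from 4.09 up to the 6.44 of leukemia inhibitory factor, below the 6.56 of *Fgf2*. For these, a lack of difference says little. *Cntf*, ciliary neurotrophic factor, had a difference of -0.36 in 3 ZT light against 0 ZT dark (SE 0.161, adjusted p = 0.65). Its ratios were 0.98, 0.57 and 0.85, lowest in replica 2, whose 3 ZT light array had the highest *Actb* difference. Of 6 measured receptors and kinases none passed. *Jak2*, a kinase that gp130 uses, had 0.41 in 6 ZT light against 0 ZT dark (SE 0.153, adjusted p = 0.721), and *Cntfr*, the receptor of that ligand, -0.26 in 6 ZT light against 6 ZT dark (SE 0.100, adjusted p = 0.553). Of 13 other STAT factors and inhibitors none passed, and *Stat5b* had 0.37 in 6 ZT light against 0 ZT dark (SE 0.139, adjusted p = 0.73). Among 22 targets of STAT3 and acute phase genes none passed, with 14 above and 8 below 0 in light against dark at 6 ZT (median 0.06) and 6 above and 16 below at 3 ZT (median -0.04). Without the 2 arrays with the high *Actb* difference, 9 were above and 13 below at 3 ZT, with a median of -0.01, as for all probe sets. The immediate early genes *Egr1* and *Fos*, which many other signals also induce, had the lowest p-values at 6 ZT, with 1.21 (SE 0.389, adjusted p = 0.518) and 1.03 (SE 0.463, adjusted p = 0.585). The replicas were uneven, with ratios of 1.86, 1.09 and 6.14 for *Egr1* and of 1.02, 2.20 and 3.78 for *Fos*, both highest in replica 3, whose 6 ZT light array had the lowest lens signal.

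Beside the secreted factors, 3 other genes of the endothelin system were measured, the ligand gene *Edn1* and the converting enzyme genes *Ece1* and *Ece2*. The endothelin receptors were not measured. A list of 14 other FGF family genes, FGF receptors and targets was measured too, and no gene of either list passed. *Etv4*, a transcription factor induced by FGF signalling, was 2.17, 2.81 and 2.62 times as high in light as in darkness at 6 ZT (log2 difference 1.33, SE 0.336, adjusted p = 0.478). *Dusp6*, the FGF feedback phosphatase, had 0.66 at 6 ZT (SE 0.206, adjusted p = 0.508) and 0.47 at 3 ZT (SE 0.206, adjusted p = 0.895). *Etv5*, a relative of *Etv4*, had -0.62 at 3 ZT (SE 0.229, adjusted p = 0.895). *Ece2*, which encodes an endothelin converting enzyme, had -0.26 at 6 ZT (SE 0.107, adjusted p = 0.562).

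Among 24 measured markers of Müller glia, other than the members, 19 were below 0 and 5 above in 3 ZT light against 0 ZT dark (median -0.20), and 21 were above and 3 below in 6 ZT light (median 0.09), none of them past the threshold. Light against dark gave 18 below and 6 above at 3 ZT (median -0.17) and 15 above and 9 below at 6 ZT (median 0.08). Without the 2 arrays with the high *Actb* difference the counts were 19 below and 5 above, 15 above and 9 below, 18 below and 6 above, and 15 above and 9 below, and the medians -0.17, 0.03, -0.07 and 0.08. The mean of the list was lowest in these arrays within their replicas, 11.06 and 11.07, against 11.14 to 11.66 in the 13 others. *Kcnj10*, the potassium channel of Müller cells, had 0.25 in 6 ZT light against 0 ZT dark (SE 0.068, adjusted p = 0.476), and *Aqp4*, their water channel, 0.26 (SE 0.097, adjusted p = 0.721). The *Kcnj10* probe set was dim, with a mean log2 value of 5.47, below the 6.56 of *Fgf2*. *Gpr37*, a receptor of glia, had -0.41 in light against dark at 3 ZT (SE 0.184, adjusted p = 0.895). *Car14*, a carbonic anhydrase, had -0.39 in 3 ZT light against 0 ZT dark (SE 0.139, adjusted p = 0.601) and 0.39 in light against dark at 6 ZT (SE 0.139, adjusted p = 0.534).

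Markers of neighbouring cells were read beside these. Of 6 genes common to astrocytes, which also hold *Gfap*, none passed, and 2 were above and 4 below 0 in light against dark at 6 ZT (median -0.09). *Gja1*, the gap junction gene of glia and pigment epithelium, was 1 of the 2, with 1.37 (SE 0.374, adjusted p = 0.508) and uneven ratios of 4.87, 0.88 and 4.03. In the same comparison the 9 pigment epithelium genes were all above 0 (median 0.67), and the 13 lens genes (median -1.64) and 9 ganglion cell genes (median -0.39) all below. *Rlbp1* stands in both the pigment epithelium and the Müller glia list, so these lists are not fully separate. The 5 rod genes were all above 0 (median 0.07), and of 7 genes of blood and vessels 4 were above and 3 below (median 0.13). All 10 microglia genes were below 0 there (median -0.11), and the mean of the list ran from 7.90 to 8.68 over the arrays. The part of these cells in the values of the 10 genes was not tested.

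Across the 15 arrays, after the mean of each replica number was subtracted, the 2 dimmer *Glul* probe sets had a Pearson correlation of 0.985, and the brightest had 0.803 with 1386870_at and 0.756 with 1367633_at. *Glul* 1367633_at and *Slc1a3* 1388064_a_at had 0.932. *Il6st* 1373140_at and 1383489_at had 0.888, and the 2 *Lifr* probe sets 0.792. Other probe sets of the same gene were less alike. The remaining *Il6st* pairs ran from 0.276 to 0.675 and the *Slc1a3* pairs from -0.472 to 0.275, and the 2 *Stat3* probe sets had -0.109. These are descriptions over 15 arrays, and both *Glul* and *Slc1a3* values share the 2 arrays described above. Among 14216 other named genes, the patterns most like the brightest *Il6st* probe set were those of *Larp1b* (0.97) and *Mbnl1* (0.967). The nearest to *Glul* 1367632_at were *Gpr37* (0.934) and *Prrc1* (0.93), and to *Vim* *Atp1b3* (0.948) and *Mfap2* (0.942). *Gfap* was nearest to *Ces1c* (0.864) and *Serping1* (0.833), and the brighter *Stat3* probe set to *Septin9* (0.925) and *Vps51* (0.904).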

How the data were processed

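Total RNA of retinas was hybridised to rat arrays by the authors, who state that values were made with the Robust Multi-array Average from the scanned images. The deposited values are in log2 units and were used unchanged. Whether replica numbers were normalized as separate sets is not given in the sources used here. Symbols came from the platform annotation (20832 probe sets with 1 symbol, 436 with several, 9831 with none). Members and gene lists were chosen with earlier results of these data known.

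All 15 arrays entered 1 fit in limma 3.58.1 (R 4.3.3), whose terms were condition and replica number. The 7 comparisons were adjusted by Benjamini-Hochberg over 31042 probe sets (57 controls left out), with a threshold of 0.05, two-sided. The replica number served as a block, as the study takes ratios within replicas. In 18 of 18 checks an array deviated most like the array of its own number (r from 0.289 to 0.797), which may come from processing. Depth does not apply to arrays, whose number limits the precision.

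All member probe sets are named. From each list, each gene by its brightest probe set, up to 2 genes with the smallest p in each light comparison could be named, and for each member gene the 2 named genes most alike. No 2 arrays held identical values. The fit was tested on simulated data. Alternatives were no replicate block, cyclic loess or quantile normalization, a filter on dim probe sets, array weights, fits of only the conditions compared, ratios above 2 or below 0.5, and each array left out in turn. Leaving out both arrays with the highest *Actb* difference was chosen after seeing the data. Figures were drawn with matplotlib 3.10.9.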

Additional observations from a re-analysis of the deposited data

Results flagged for a closer look

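*Stat3* 1370224_at had replica differences of opposite sign between light and dark at the 2 hours, none of them past the threshold. In 3 ZT light it was above 3 ZT dark in all 3 replicas, by 0.82, 0.52 and 0.25 log2 units, and in 6 ZT light it was below 6 ZT dark in all 3, by -0.03, -0.23 and -0.06. Of all probe sets, 7.71% were higher in all 3 replicas at 3 ZT and 13.5% lower in all 3 at 6 ZT. The mean at 6 ZT was -0.11, with a 95% confidence interval from -0.60 to 0.38, which includes 0. The difference of the light effects was -0.64 (SE 0.311, limma adjusted p = 0.776, unadjusted p = 0.0647), so it did not pass the threshold. The brighter probe set of *Stat3* had a difference of 0.18 (SE 0.214, adjusted p = 0.845), or 0.08 without the 2 arrays with the high *Actb* difference.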

How the results depend on the processing

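The 19 probe sets gave 133 fold changes over the 7 comparisons and 2919 values under the alternatives. Of these, 2914 stayed on their side of the threshold and 184 changed sign, all of values that had not passed. The 5 that newly passed all came with array weights: *Il6st* 1373140_at and 1383489_at in 6 ZT light against 0 ZT dark (0.65 and 1.01, adjusted p = 0.0294 and 0.0178) and against 6 ZT dark (0.59 and 0.67, adjusted p = 0.0171 and 0.0225), and *Fgf2* against 6 ZT dark (-0.26, adjusted p = 0.0406). That fit gave 6 ZT light replica 3 a weight of 7.45, against 0.488 and 0.464 for replicas 1 and 2, so it rests mostly on 1 array.

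Over all probe sets, 1 was called in 3 ZT light against 0 ZT dark and 1 against 3 ZT dark, and none elsewhere. Without the replicate block the call against 3 ZT dark was lost (0) and no other count moved, and with quantile normalization it was lost too (0). With fits of only the conditions compared both were lost (0 and 0). Array weights called 2 in 3 ZT light and 676 in 6 ZT light against 0 ZT dark, 3 in 6 ZT dark against 0 ZT dark, and 2311 in light against dark at 6 ZT. Leaving out single arrays gave 0 to 2 for 3 ZT light against 0 ZT dark, 0 to 1 against 3 ZT dark, 0 to 38 for 6 ZT light against 0 ZT dark (38 without 3 ZT light replica 2), 0 to 1 for 6 ZT dark against 0 ZT dark, and 0 to 3 for light against dark at 6 ZT. Leaving out both arrays with the highest *Actb* difference gave 3 for 6 ZT light against 0 ZT dark. The causes were not tested.

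No member met the ratio rule in all 3 replicas. For 3 ZT light against 0 ZT dark, 1 did with quantile normalization, 0 to 1 without single arrays (*Stat3* 1370224_at when replica 2 was left out), and 3 without both arrays, when only replica 3 held a pair. Without single arrays the count was 0 to 1 for 6 ZT light, 3 ZT dark and 6 ZT dark, and without both arrays it was 1 for 3 ZT dark and 1 for 6 ZT dark. The number of arrays, 3 per condition, limits all of these values.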
